A study of Mus musculus with 6 samples.

Results

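Lysophospholipid and sphingosine phosphate signalling is described here through 10 genes, chosen by name from the 49548 genes of the expression table: the sphingosine 1-phosphate (S1P) receptors S1pr1, S1pr2 and S1pr3, the sphingosine kinases Sphk1 and Sphk2, the S1P lyase Sgpl1, autotaxin (Enpp2) and the lysophosphatidic acid (LPA) receptors Lpar1, Lpar4 and Lpar6. Each of the 10 names matched 1 gene. The cells were sorted from colonic adenomas as cancer-associated fibroblasts (CAFs), the name the study gives them, although both subsets also held epithelial RNA (below). The mice had the genotype Col6a1-cre, Rosa26-mTmG on a C57/BL6 background. They were aged 8 to 10 weeks at the injection of azoxymethane (AOM), which was followed by 3 cycles of dextran sodium sulfate (DSS). In this reporter, Cre replaces membrane Tomato with GFP, so that Col6a1+ CAFs are GFP+ and Col6a1- CAFs Tomato+, and both came from the same genotype and treatment, with no untreated or Cre-free group among the 6 libraries. There were 3 libraries per subset, each made from pooled tumors of 5 to 6 mice and sorted without CD45, EpCAM, CD31 and Ter119. GFP records Cre activity at any earlier time, and the Col6a1Cre strain marks telocyte-like fibroblasts together with pericytes, so that each subset is a mixture of cell types. In such sorted bulk samples, fewer cells that express a gene and less RNA per cell cannot be told apart.

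S1P and LPA are small signalling lipids that act outside the cell through G protein-coupled receptors. S1P is made from sphingosine by the sphingosine kinases and is cleaved irreversibly by the lyase, and its receptors differ in the G proteins they use: S1pr1 couples to Gi, whereas S1pr2 and S1pr3 also reach the Gq and G12/13 proteins that drive RhoA and contraction. Autotaxin is a secreted enzyme that makes LPA from lysophosphatidylcholine. Lpar1 belongs to the same receptor family as the S1P receptors, while Lpar4 and Lpar6 are related to purinergic receptors. In blood vessels S1P is known for its action on endothelial cells and on the mural cells (pericytes and smooth muscle) around them.

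The values are normalized counts of 3' ends of polyadenylated transcripts, in which the authors divided each library by a size factor. Log2 fold changes are differences of mean log2(normalized count + 1), Col6a1+ minus Col6a1- CAFs, tested with limma over 26402 genes and adjusted by the Benjamini-Hochberg method. The added 1 understates the change of genes with few counts, but a single library at 0 can still enlarge it. S1pr1, with means of 23.3 in Col6a1+ and 24.7 in Col6a1- CAFs, had a log2 fold change of -1.23. The libraries summed to between 3039152 and 3425249 normalized counts. Rough estimates from the spacing of low values gave between about 2563809 and 4597809 reads. The spacing fitted worst in Col6a1- replicate 2 (correlation 0.544) and Col6a1+ replicate 1 (0.698), whose estimates are the least certain. Col6a1+ replicate 1 stood apart: it held 14530 genes at 1 count or more against 18770 to 20511 in the other libraries, and 15.2% of the 3893 genes with a mean of 20 to 60 normalized counts were at 0 in it, against 0.411% to 1.05%. Col6a1, whose promoter drives the Cre, checks the labels. It had 861, 1287 and 1941 normalized counts in Col6a1+ CAFs and 182, 321 and 102 in Col6a1- CAFs. The 8 mural markers listed for this check, among them Rgs5 and Cspg4, were all higher in Col6a1+ CAFs at an adjusted p of 0.05, as were 4 of 6 fibroblast markers, while 6 of 9 epithelial markers were lower.

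Of the 10 genes, 1 passed an adjusted p of 0.05 (limma): S1pr3 was higher in Col6a1+ CAFs, and no gene was lower. Among all genes tested, 4.62% passed in either direction, 2.66% as higher and 1.96% as lower. The median log2 fold change of the 10 genes was 0.54, beside -0.27 over all genes tested and -0.15 over the 13515 genes that averaged 10 or more normalized counts (the better-counted genes), to which all 10 belong. For 5 of them the 3 Col6a1+ libraries did not overlap the 3 Col6a1- libraries (higher for S1pr3, Sphk1 and Enpp2, lower for Sphk2 and Lpar6), that is, 3 higher and 2 lower. Among the better-counted genes 31.7% were separated in this way, 14.2% with the Col6a1+ libraries higher and 17.6% with them lower. S1pr3, Enpp2 and Sphk2 had an unadjusted limma p under 0.05, and only for these 3 genes did the 95% interval of the log2 fold change exclude 0. Same-numbered libraries were read as pairs, although the correlations of their deviations from the group means followed the numbers only in part. Col6a1+ replicate 2 correlated at 0.15 with Col6a1- replicate 3 and at 0.125 with Col6a1- replicate 2. When the replicate number was fitted as a block, no gene of the table passed, S1pr3 included, whereas 13.7% passed when the blocked fit was restricted to the better-counted genes.

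**Figure D1:**
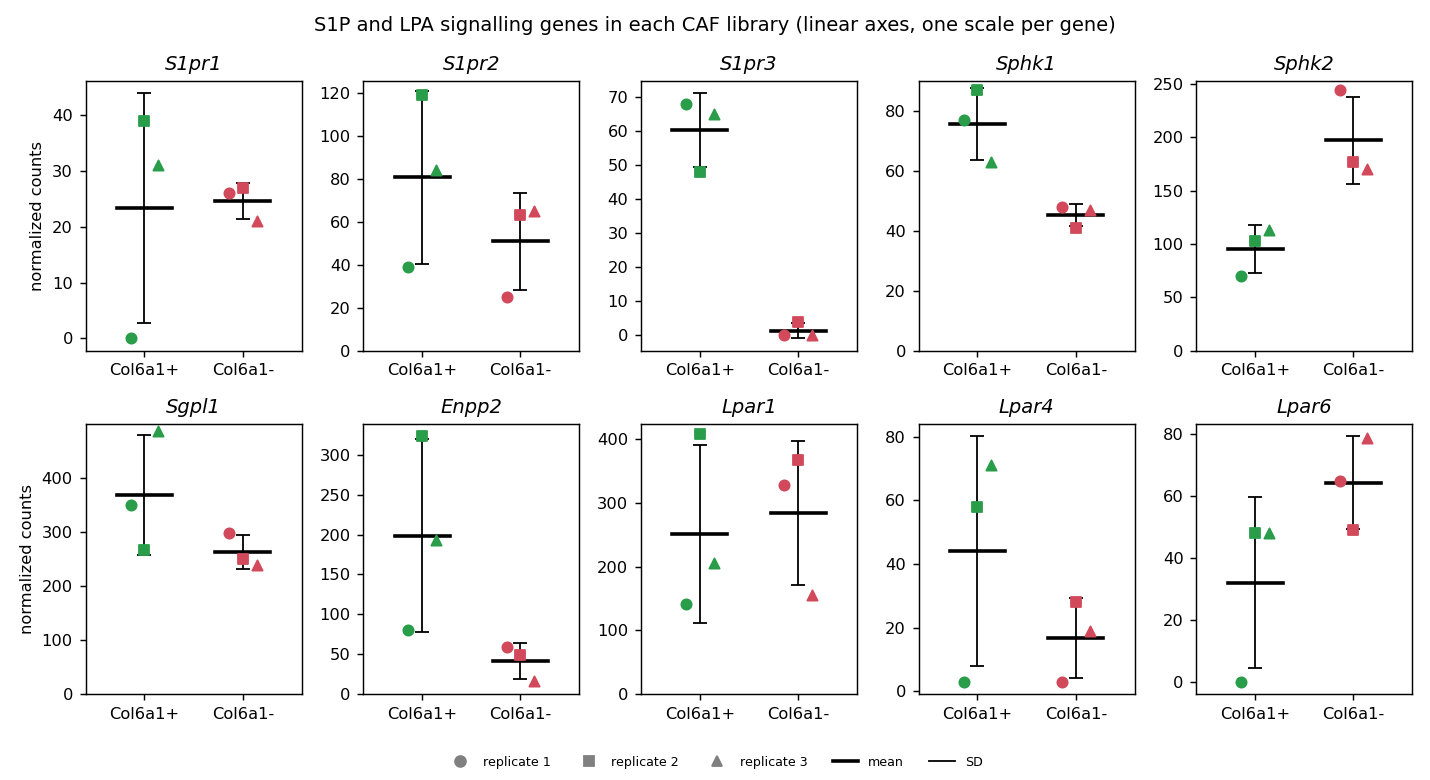
Normalized counts (linear y axis, one scale per gene) of the 10 genes in the 3 Col6a1+ (green) and 3 Col6a1- (red) CAF libraries, with the replicate given by the point shape, the mean as a thick line and the SD as a thin bar. S1pr3 was at 48 to 68 in Col6a1+ CAFs and at 0 to 4 in Col6a1- CAFs, and Col6a1+ replicate 1 (circle) was at 0 for S1pr1 and Lpar6.

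The S1P receptors are taken first, and the 250 bases before the transcript starts of S1pr3 and S1pr2 are printed because S1pr3 was the gene that passed the test and S1pr2, a receptor of the same ligand also linked to G12/13, did not. The sequences are from RefSeq (GRCm38.p6, the build of the mm10 coordinates), in which 8 of the 10 genes have an entry. The stretch before S1pr3 lies at chr13:51408368-51408617 on the plus strand and ends at the base before the gene start in the expression table. The stretch before S1pr2 lies at chr9:20976794-20977043 and is given for the minus strand. Capitals mark a GC box (GGGCGG) in S1pr3 and a cAMP response element (TGACGTCA) in S1pr2.
S1pr3: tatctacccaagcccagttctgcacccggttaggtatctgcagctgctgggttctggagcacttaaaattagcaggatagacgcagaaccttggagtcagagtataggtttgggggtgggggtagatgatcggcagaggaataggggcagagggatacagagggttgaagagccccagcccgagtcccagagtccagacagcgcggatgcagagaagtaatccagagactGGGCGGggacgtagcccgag
S1pr2: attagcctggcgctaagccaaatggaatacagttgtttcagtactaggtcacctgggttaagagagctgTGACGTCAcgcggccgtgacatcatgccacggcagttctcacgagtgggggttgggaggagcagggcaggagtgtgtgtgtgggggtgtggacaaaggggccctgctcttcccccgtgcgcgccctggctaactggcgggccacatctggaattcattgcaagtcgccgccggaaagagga
The GC box began 20 bases before the S1pr3 start and was present in 32.7% of 32851 RefSeq promoters of this length, searched on both strands. The cAMP response element began 181 bases before the S1pr2 start and was present in 1.55%. Neither stretch held a TATA box (TATAAA, in 12.4% of promoters), a CArG box (1.47%) or the RBPJ motif TGGGAA (21.6%). The S1pr3 stretch was 56.4% G and C and that of S1pr2 59.2%.

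S1pr3 (ENSMUSG00000067586, chromosome 13 from 51408618 to 51422797, plus strand) encodes the S1P receptor known for contraction of vascular mural cells. Its normalized counts were 68, 48 and 65 in the Col6a1+ CAF libraries and 0, 4 and 0 in the Col6a1- CAF libraries. Each Col6a1+ library was thus far above each Col6a1- library, and the spread within Col6a1+ CAFs was narrow (60.3 ± 10.8, SD, n = 3). On the log2 scale Col6a1+ CAFs were higher by 5.15 ± 0.96 (SE), with a 95% interval of 3.03 to 7.27 and a limma adjusted p of 0.0134. A count of 0 allows up to 3 counts in a library, so that the size of the difference is less certain than its direction. The log2 fold change was 4.76 or more without any 1 library, but the limma adjusted p rose above 0.05 in 4 of these 6 fits. It was 0.0682 without Col6a1+ replicate 2 and 0.0913 without Col6a1+ replicate 3. Without Col6a1- replicate 1 it was 0.101, and without Col6a1- replicate 3 it was 0.110. The blocked fit gave 0.0911, and 0.0153 among the better-counted genes. No other gene of the table overlaps S1pr3.

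The mural markers moved with S1pr3: their summed level was 41577 to 90981 normalized counts in Col6a1+ CAFs and 1147 to 2141 in Col6a1- CAFs, with all 8 genes called and the marker Higd1b at 0 in the Col6a1- libraries. Among the Col6a1+ libraries, replicate 2 was the lowest for S1pr3 and for 7 of the 8 mural markers, all but Higd1b. It was the single lowest for 25.1% of the better-counted genes. Markers of the same cell type are not separate observations. The likeness also rests on replicate 2 alone, with S1pr3 at 48 there against 68 and 65 in replicates 1 and 3. The part of mural cells in the S1pr3 difference was not tested.

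S1pr2 (ENSMUSG00000043895, chromosome 9 from 20962361 to 20976781, minus strand) is a receptor that signals mainly through G12/13. It had 39, 119 and 84 normalized counts in Col6a1+ CAFs and 25, 63 and 65 in Col6a1- CAFs. The groups overlapped, and in each subset replicate 1 was the lowest library. Within each replicate number the Col6a1+ library was the higher one. The subsets differed by 0.63 ± 0.57 (SE) on the log2 scale (limma adjusted p = 0.632), and the 95% interval of -0.63 to 1.89 leaves out a difference as large as that of S1pr3.

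S1pr1 (ENSMUSG00000045092, chromosome 3 from 115710433 to 115715072, minus strand), the Gi-coupled receptor best known from endothelial cells and lymphocytes, had 0, 39 and 31 normalized counts in Col6a1+ CAFs and 26, 27 and 21 in Col6a1- CAFs. The Col6a1- libraries lay close together, whereas Col6a1+ replicate 1 was at 0 and the other Col6a1+ libraries were above all 3 Col6a1- libraries. The log2 fold change of -1.23 ± 1.27 (SE) did not pass (limma adjusted p = 0.642) and turned to 0.49 without Col6a1+ replicate 1 (adjusted p = 0.584), so that its direction rested on that library. The 8 blood endothelial markers did not move as 1 group. Tie1 was called higher in Col6a1+ CAFs, with 220, 56 and 152 normalized counts against 1, 7 and 21, while the other 7 had negative log2 fold changes and did not pass (median over the 8, -1.59). Their sum was 128 to 342 normalized counts in Col6a1+ CAFs, of which Tie1 made up a large part, and 134 to 339 in Col6a1- CAFs. In Col6a1+ replicate 1, Pecam1, Tek, Vwf, Cldn5 and Emcn were at 0 like S1pr1, whereas Tie1 (220) and Kdr (112) were at their highest among the Col6a1+ libraries. The endothelial part in the S1pr1 values was not tested. The remaining S1P receptors, S1pr4 and S1pr5, were at 0 in all 6 libraries, which allows up to 3 counts in each.

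Because S1pr1, S1pr2 and S1pr3 bind one ligand, their ratios within a library were compared, in which the scaling of the library cancels apart from the added 1. The log2 ratio of S1pr3 over S1pr1 was 6.11, 0.29 and 1.04 in the Col6a1+ libraries and -4.75, -2.49 and -4.46 in the Col6a1- libraries. The subsets did not overlap, and the difference of 6.38 had the smallest p this design allows (exact permutation test, two-sided, p = 0.1, adjusted p = 0.4 over 4 ratios). The value of 6.11 came from Col6a1+ replicate 1, in which S1pr1 was at 0, and the difference was 4.57 without it. The ratio of S1pr2 over S1pr1 overlapped between the subsets, with a difference of 1.86 (exact permutation p = 0.3, adjusted p = 0.6).

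**Figure D2:**
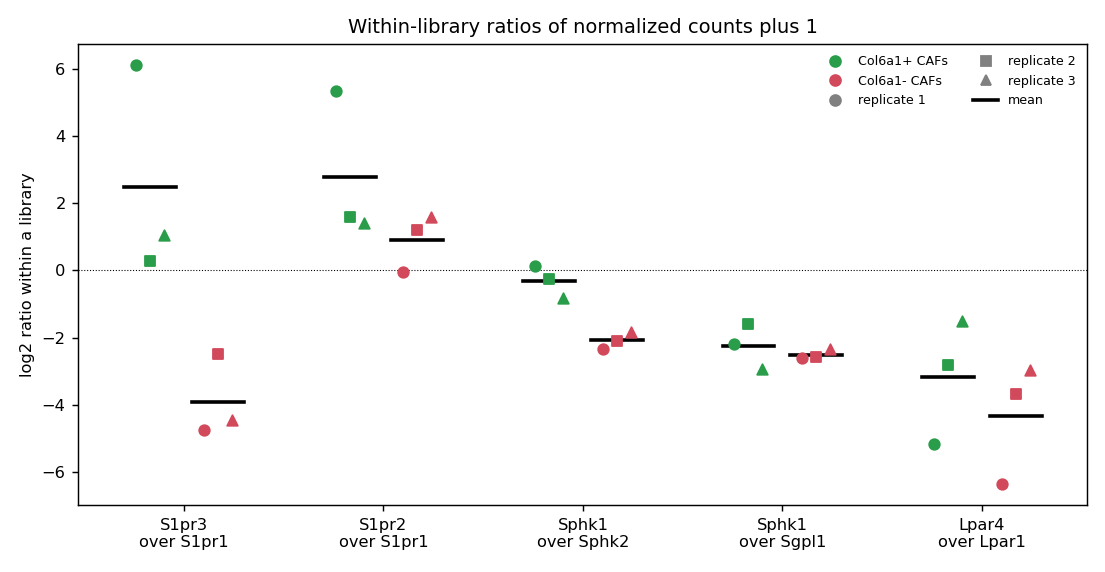
Log2 ratios of normalized counts plus 1 for 5 gene pairs (x axis) within each library (y axis, log2), with Col6a1+ CAFs in green, Col6a1- CAFs in red, the replicate given by the point shape and the mean by a line. S1pr3 over S1pr1 and Sphk1 over Sphk2 did not overlap between the subsets, and the other 3 ratios did.

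The sphingosine kinases lay in opposite directions, without passing the test. Sphk1 (ENSMUSG00000061878, chromosome 11 from 116530925 to 116536674, plus strand), the cytoplasmic kinase that is induced by growth factors, had 77, 87 and 63 normalized counts in Col6a1+ CAFs and 48, 41 and 47 in Col6a1- CAFs. Each Col6a1+ library was above each Col6a1- library. This came to 0.72 ± 0.42 (SE) on the log2 scale, with a 95% interval of -0.21 to 1.64 and a limma adjusted p of 0.450.

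Sphk2 (ENSMUSG00000057342, chromosome 7 from 45709467 to 45718002, minus strand), the kinase found also in nuclei and mitochondria, had 70, 103 and 113 normalized counts in Col6a1+ CAFs and 244, 177 and 170 in Col6a1- CAFs. Here each Col6a1+ library was below each Col6a1- library. In limma the log2 fold change was -1.05 ± 0.36 (SE), with a 95% interval of -1.84 to -0.25 and an adjusted p of 0.152. It lay between -1.18 and -0.84 when 1 library was left out, and its adjusted p stayed between 0.0902 and 0.297 over the alternatives tried. Sphk2 overlaps Rpl18 over 2546 bases and Dbp over 737 bases, both on the other strand, with 445 to 919 and 0 to 23 normalized counts. Whether the counting used the strand is not given in the sources used here, and the Sphk2 counts are therefore uncertain.

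Taken within each library, a pair chosen after its values were seen, the log2 ratio of Sphk1 over Sphk2 was 0.14, -0.24 and -0.83 in Col6a1+ CAFs and -2.32, -2.08 and -1.83 in Col6a1- CAFs. It averaged -0.31 ± 0.49 (SD) over the 3 Col6a1+ libraries and -2.08 ± 0.24 (SD) over the 3 Col6a1- libraries, a description for which no test was made.

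Sgpl1 (ENSMUSG00000020097, chromosome 10 from 61098642 to 61147703, minus strand), the lyase that ends S1P signalling, had 351, 267 and 487 normalized counts in Col6a1+ CAFs and 299, 250 and 239 in Col6a1- CAFs. The groups overlapped through Col6a1+ replicate 2, and the other Col6a1+ libraries were above all 3 Col6a1- libraries. Their difference of 0.45 ± 0.32 (SE) on the log2 scale had a 95% interval of -0.26 to 1.16 and did not pass (limma adjusted p = 0.560). The log2 ratio of Sphk1 over Sgpl1, kinase against lyase, differed by 0.27 between the subsets (exact permutation p = 0.6, adjusted p = 0.6) and was -0.047 without Col6a1+ replicate 2.

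Enpp2 (ENSMUSG00000022425, chromosome 15 from 54838898 to 54920146, minus strand), which encodes the LPA-producing enzyme autotaxin, had 80, 323 and 193 normalized counts in Col6a1+ CAFs and 59, 49 and 16 in Col6a1- CAFs. The libraries did not overlap, although Col6a1+ replicate 1 was close to the highest Col6a1- library. The mean of Col6a1+ CAFs was 4.81 times that of Col6a1- CAFs, and the log2 fold change was 2.21 ± 0.62 (SE) with a 95% interval of 0.83 to 3.60. Over all genes tested it did not pass (limma adjusted p = 0.0786, and 0.213 in the blocked fit). It passed in the blocked fit of the better-counted genes (adjusted p = 0.0458) and under no other alternative, over which the adjusted p reached 0.459. Leaving out 1 library gave log2 fold changes of 1.65 (without Col6a1- replicate 3) to 2.76 (without Col6a1+ replicate 1).

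**Figure D3:**
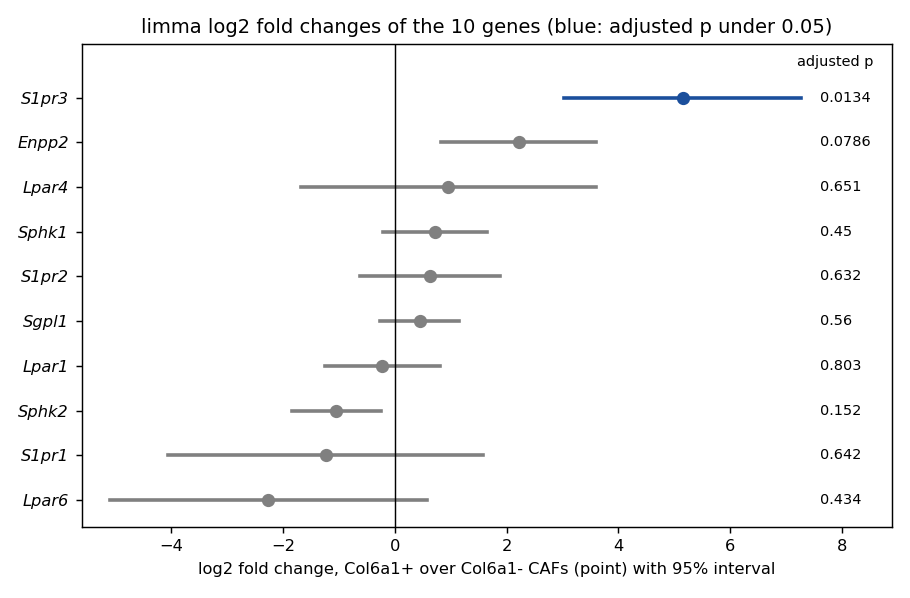
Log2 fold changes (x axis, Col6a1+ over Col6a1- CAFs) of the 10 genes from limma as points, with 95% intervals as bars and adjusted p-values at the right. S1pr3 (blue) passed at 0.0134, and the intervals of Enpp2 and Sphk2 (grey) also exclude 0.

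None of the 3 LPA receptors passed the test. Lpar1 (ENSMUSG00000038668, chromosome 4 from 58435255 to 58553898, minus strand), the receptor common in fibroblasts, had 141, 409 and 205 normalized counts in Col6a1+ CAFs and 328, 368 and 155 in Col6a1- CAFs. The subsets overlapped widely, and replicate 2 was the highest library in each. In limma the log2 fold change was -0.22 ± 0.46 (SE, adjusted p = 0.803), with a 95% interval of -1.25 to 0.81, and it became 0.12 without Col6a1+ replicate 1 and 0.01 without Col6a1- replicate 2.

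Lpar4 (ENSMUSG00000049929, chromosome X from 106920625 to 106933900, plus strand), a receptor with a known part in vessel development, had 3, 58 and 71 normalized counts in Col6a1+ CAFs and 3, 28 and 19 in Col6a1- CAFs. Replicate 1 was at 3 in both subsets, and replicates 2 and 3 were higher in Col6a1+ CAFs. The subsets differed by 0.96 ± 1.19 (SE) on the log2 scale (limma adjusted p = 0.651, 95% interval -1.68 to 3.60), which rose to 2.30 without Col6a1+ replicate 1 (adjusted p = 0.228). The value was 0.09 without Col6a1- replicate 1, 0.36 without Col6a1+ replicate 2 and 0.21 without Col6a1+ replicate 3, and it passed in none of these fits. The log2 ratio of Lpar4 over Lpar1 was higher in Col6a1+ CAFs in 3 of 3 same-numbered pairs but overlapped between the subsets, with a difference of 1.18 (exact permutation p = 0.5, adjusted p = 0.6).

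Lpar6 (ENSMUSG00000033446, chromosome 14 from 73237895 to 73243294, plus strand) had 0, 48 and 48 normalized counts in Col6a1+ CAFs and 65, 49 and 79 in Col6a1- CAFs. The Col6a1+ libraries were the lower ones, but replicates 2 and 3 were within 1 count of the lowest Col6a1- library. Its log2 fold change of -2.26 ± 1.28 (SE) had a 95% interval of -5.10 to 0.58 (limma adjusted p = 0.434) and shrank to -0.39 without Col6a1+ replicate 1. Lpar6 lies wholly inside Rb1, a gene on the other strand with 44 to 122 normalized counts. The highest Rb1 count was in Col6a1+ replicate 1, where Lpar6 was at 0. As the use of the strand in counting is not given, the Lpar6 counts are uncertain too.

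Col6a1+ replicate 1 was the single lowest Col6a1+ library for 7 of the 10 genes, beside 46.1% of the better-counted genes. It was at 0 for S1pr1 and Lpar6, and no other library was at 0 for a gene of this group apart from 2 Col6a1- libraries for S1pr3. The 3 genes without this pattern were S1pr3, Sphk1 and Sgpl1. In 7 of the 10 genes the 3 same-numbered pairs all pointed the same way (5 higher and 2 lower in Col6a1+ CAFs), beside 50.2% of the better-counted genes.

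Further genes of the pathways were taken from a list of 65 by role, of which 61 had at least 1 normalized count over the 6 libraries. Of the 61, 55 averaged 10 or more normalized counts. At a limma adjusted p of 0.05, 6 of the 61 were higher and 4 lower in Col6a1+ CAFs. Among all 26402 genes tested, low-count genes included, 2.66% were higher and 1.96% lower, so that these shares are not from genes of like counts. The median log2 fold change of the 61 was 0.04, beside -0.27 over all genes tested. In the blocked fit none passed. In the blocked fit of the better-counted genes, which held 55 of them, 10 were higher and 7 lower, beside 13.7% of all 13515 genes in either direction. Leaving out Col6a1- replicate 1, Col6a1- replicate 2 or Col6a1- replicate 3 left 0 of them called in this test, against 2 higher and 1 lower without Col6a1+ replicate 2, 1 and 1 without Col6a1+ replicate 3, and 4 and 6 without Col6a1+ replicate 1.

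Among the other LPA receptors, Lpar2 had 20, 10 and 16 normalized counts in Col6a1- CAFs and 0, 1 and 0 in Col6a1+ CAFs, which makes it at least 5.11-fold lower in Col6a1+ CAFs when computed against 3 counts per library. The subsets did not overlap, and the adjusted p was 0.0531 (limma, log2 fold change -3.65 ± 0.93, SE). Lpar3 was low throughout, with 3, 5 and 11 normalized counts in Col6a1+ CAFs and 9, 0 and 0 in Col6a1- CAFs. Lpar5 was at 0 in all 6 libraries, which allows up to 3 counts in each.

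Of the enzymes that release lysophospholipids, Pla1a, a secreted phospholipase that acts on phosphatidylserine, was higher in Col6a1+ CAFs, with 934, 381 and 503 normalized counts against 187, 89 and 40 (log2 fold change 2.67 ± 0.54, SE, limma adjusted p = 0.0201, blocked fit 0.0719). Liph, which makes LPA at the cell surface, had 56, 46 and 35 against 89, 91 and 86 and did not pass (adjusted p = 0.279). Of the 5 phosphatases that remove phosphate from S1P or LPA, Sgpp2 was lower in Col6a1+ CAFs, with 90, 27 and 16 normalized counts against 206, 164 and 164 (log2 fold change -2.34 ± 0.58, SE, limma adjusted p = 0.0486, blocked fit 0.120). Plpp3, whose product removes phosphate from both lipids at the cell surface, lay the other way, with 252, 1299 and 1516 against 114, 316 and 190. It was higher in Col6a1+ CAFs in 3 of 3 same-numbered pairs but did not pass (log2 fold change 2.05 ± 0.63, SE, limma adjusted p = 0.106, blocked fit 0.111). In the blocked fit of the better-counted genes both passed, with adjusted p-values of 0.0101 for Plpp3 and 0.0180 for Sgpp2. None of the 5 genes of S1P transport passed.

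Of the 14 ceramide synthesis genes tested, 2 were lower and none higher (median log2 fold change -0.78). This stands beside 1.96% and 2.66% of all genes tested, low-count genes included. The ceramide synthase gene Cers6 had 9, 37 and 45 normalized counts in Col6a1+ CAFs and 235, 217 and 311 in Col6a1- CAFs (log2 fold change -3.28 ± 0.57, SE, limma adjusted p = 0.0105, blocked fit 0.0796). Ormdl2, which encodes a regulator of the first enzyme of sphingolipid synthesis, had 54, 60 and 40 against 190, 141 and 169 (log2 fold change -1.69 ± 0.38, SE, adjusted p = 0.0311, blocked fit 0.105). The sphingomyelinase gene Smpd3 was the 1 of 7 ceramide conversion genes that passed, with 38, 36 and 23 against 127, 129 and 127 (log2 fold change -1.98 ± 0.42, SE, adjusted p = 0.0244, blocked fit 0.0906). None of the 5 ceramidase genes passed.

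The epithelial markers moved with these lower genes. Their sum was 4960 to 5340 normalized counts in Col6a1+ CAFs and 18170 to 27832 in Col6a1- CAFs, although the sort excluded EpCAM, with Epcam itself at 615 to 1074 and 3107 to 4129. All 9 markers had a negative log2 fold change, and none was at 0 in any library. The 6 fibroblast markers summed to 37468 to 41177 in Col6a1+ CAFs and to 6799 to 13785 in Col6a1- CAFs. In each Col6a1- library the epithelial sum was thus above the fibroblast sum, so that the name CAF does not describe all RNA of that subset. The lymphatic marker Prox1, which is expressed outside lymphatics too, was at 15 to 139 in Col6a1+ CAFs and at 1100 to 2644 in Col6a1- CAFs. The part of epithelial RNA in Lpar2, Sgpp2, Cers6, Ormdl2 and Smpd3, and in Sphk2 and Lpar6 among the 10 genes, was not tested.

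Downstream of the receptors, the Gi subunit gene Gnai2 was higher in Col6a1+ CAFs, with 1827, 1360 and 2604 normalized counts against 751, 758 and 669 (log2 fold change 1.36 ± 0.30, SE, limma adjusted p = 0.0285, blocked fit 0.114). The other 6 G protein subunit genes and the 6 genes of the RhoA arm did not pass. The 6 RhoA genes all had positive log2 fold changes, from 0.36 to 1.39, beside 41.2% of all genes tested with a value above 0. Only 1 of the 6 had an unadjusted limma p under 0.05.

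The 8 listed response genes of the YAP and SRF factors, which act downstream of RhoA and of many other inputs, all averaged 10 or more normalized counts. They were listed with earlier results of these data known. Of these 8, 4 were higher in Col6a1+ CAFs and none lower, beside 2.66% and 1.96% of all genes tested, low-count genes included. The median log2 fold change of the 8 was 1.71, and 4 of them passed as higher. They were the adaptor gene Amotl2 (log2 fold change 1.86), the YAP kinase gene Lats2 (2.08), the growth factor-binding gene Crim1 (3.01) and Ctgf (1.56), a matricellular gene, with limma adjusted p-values of 0.0244, 0.00602, 0.00558 and 0.0474 and of 0.105, 0.0612, 0.0612 and 0.101 in the blocked fit. For Crim1 the normalized counts were 167, 316 and 319 against 20, 30 and 49. Ankrd1 and F3 of the same list lay the other way, and neither passed. Ankrd1 had 0, 14 and 9 against 56, 32 and 92 (limma adjusted p = 0.107). F3 had 169, 243 and 152 against 164, 233 and 340 (log2 fold change -0.35, limma adjusted p = 0.642). The mural markers given above moved with the 4 higher genes as well. So did the 5 smooth muscle markers, of which 3 were called higher and which summed to 2429 to 3279 normalized counts against 107 to 530. Their part was not tested.

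**Figure D4:**
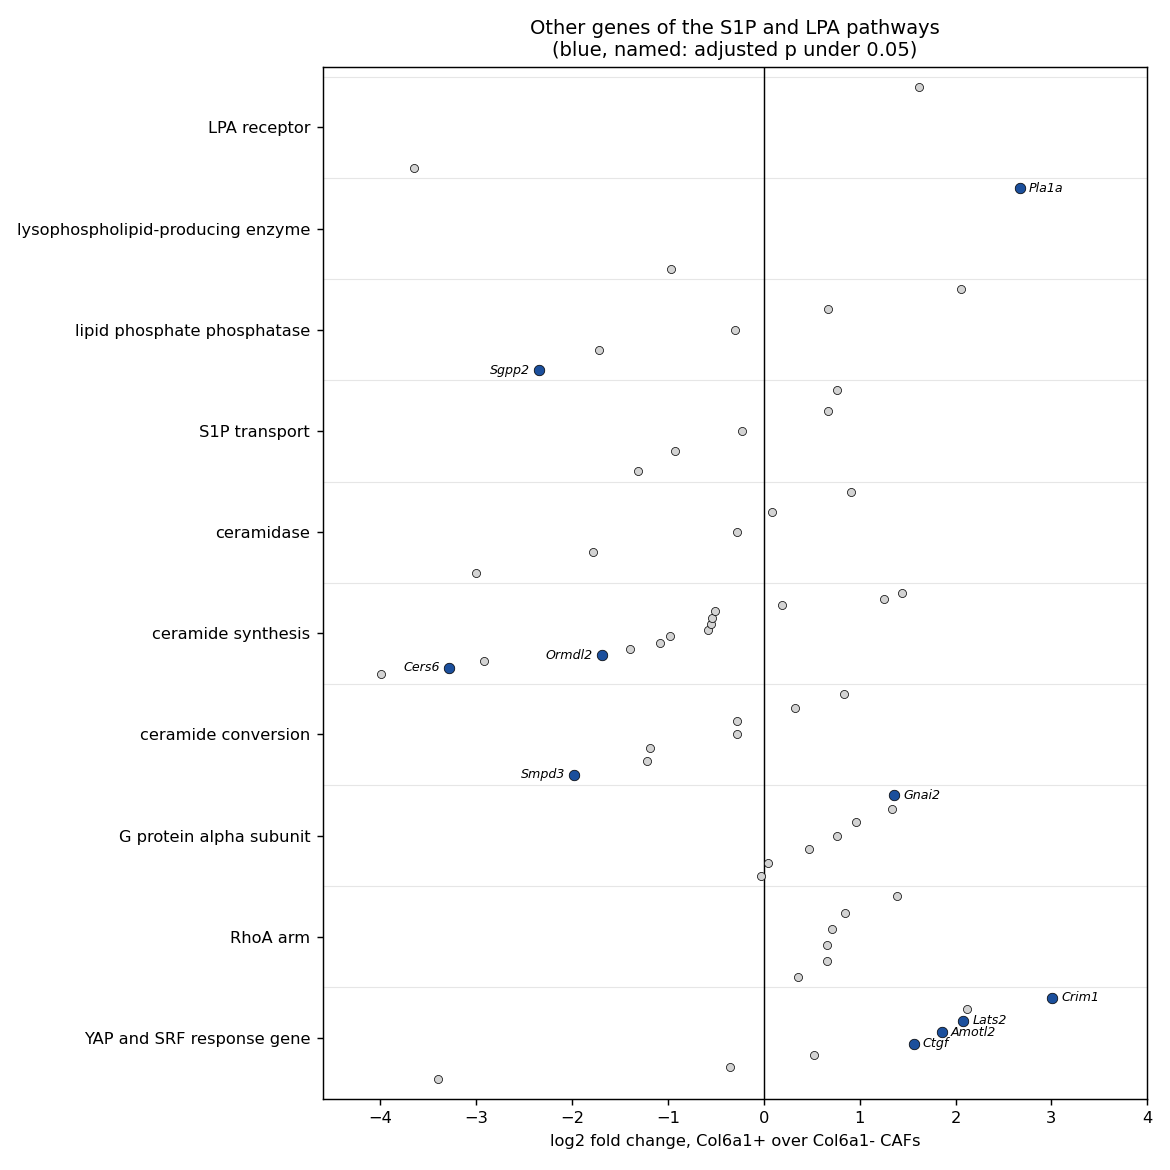
Log2 fold changes (x axis, Col6a1+ over Col6a1- CAFs) of the 61 further pathway genes tested, by role (y axis), with genes that passed an adjusted p of 0.05 in blue and named and the others in grey. The 6 named genes to the right of 0 are Pla1a, Gnai2, Ctgf, Amotl2, Lats2 and Crim1, and the 4 to the left are Sgpp2, Cers6, Ormdl2 and Smpd3.

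The genes whose pattern over the 6 libraries was most like that of S1pr3 were sought among 11810 protein-coding genes among the better-counted ones, by the root mean square difference of log2 values after each gene was centred on its own mean. The nearest was Ebf1 on chromosome 11, a transcription factor gene, at 0.25, followed by Pou2f2 on chromosome 7, also a transcription factor gene, at 0.27. Ebf1 had 368, 297 and 321 normalized counts in Col6a1+ CAFs and 3, 19 and 5 in Col6a1- CAFs. Pou2f2 had 50, 39 and 64 against 0, 2 and 0. Both, like S1pr3, had their highest Col6a1- value in replicate 2 and their lowest Col6a1+ value in replicate 2. The search over these same libraries favours such agreement, which is therefore no separate result. The Col6a1- values of S1pr3 and Pou2f2 also lie near the limit of 3 counts.

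**Figure D5:**
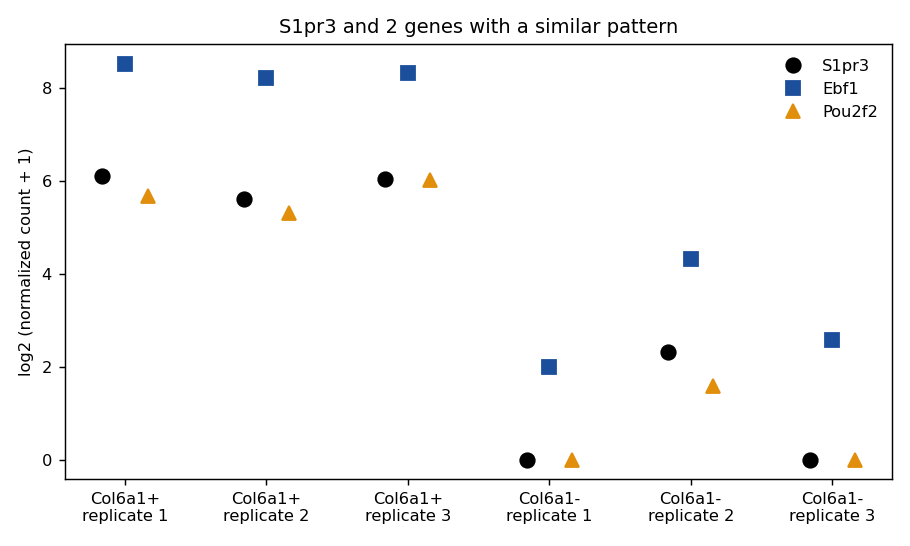
Log2(normalized count + 1) (y axis) of S1pr3, Ebf1 and Pou2f2 in the 6 libraries (x axis), with 1 point per gene and library. In all 3 genes the Col6a1+ libraries lie above the Col6a1- libraries, and Col6a1- replicate 2 is the highest of the Col6a1- libraries. Ebf1 and Pou2f2 were picked for their likeness to S1pr3 over these libraries.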

How the data were processed

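The authors mapped QuantSeq 3' mRNA reads from an Ion Proton instrument to mm10 with TopHat2, mapped unmapped reads with Bowtie2, summarized reads per gene with GenomicRanges and normalized them with DESeq through metaseqR. Their deposited table gives the log2 of the normalized count plus 1 per library, which is a whole normalized count in 100% of values (tolerance 1e-06). Its 6 columns of length-scaled values per sample, and its DESeq p-values, false discovery rates and fold changes, were not used. Groups and replicate numbers came from the labels, which do not say beyond the pools of mice that libraries are independent. Whether same-numbered libraries share a pool is not stated. The p-values of the main fit treat all libraries as separate samples and leave out any pairing. In the blocked fit over the same genes, no gene passed.

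With limma 3.58.1 (R 4.3.3), the log2 values of 26402 genes, those whose normalized counts summed to 1 or more, entered a model with 1 coefficient per subset and trended moderation (prior degrees of freedom 6.48, residual 4). A gene was called at a Benjamini-Hochberg adjusted p under 0.05. Ratios were compared with exact permutation tests over the 6 libraries. The deviations from the group means, over 13515 genes, correlated at 0.245, 0.125 and 0.144 between same-numbered libraries, which were therefore read as pairs, although Col6a1+ replicate 2 correlated at 0.15 with Col6a1- replicate 3. The other differently numbered values were 0.04 or lower. The 10 genes and all lists were chosen with earlier results of these data known. Named genes are the 10, the pathway genes called, the further S1P and LPA receptors, Col6a1, markers that bear on a gene and the 3 nearest patterns of each of the 10 that was called, of which 1 is not reported here. A few others were named after their values were seen (Liph, Plpp3, Ankrd1, F3). Alternatives are given in the closing section. Python 3.11.15, NumPy 2.4.6, pandas 2.3.3 and Matplotlib 3.10.9 were used for the summaries and plots. Counts at 0 and their limit of 3 cover counting error only.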

Additional observations from a re-analysis of the deposited data

How the results depend on the processing

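Of the 10 genes, 1 was called higher in Col6a1+ CAFs and 0 lower. The count higher stayed at 1 with library size scaling, a filter at an average of 10 normalized counts, a pseudocount of 0.1 and limma-voom. It was 0 when the genes at 0 in every library were kept in the fit, 0 with the replicate block, and 2 (S1pr3 and Enpp2) with the block and that filter together, and 0 to 1 when 1 library was left out. The count lower was 0 under every alternative run. Of the other pathway genes, 6 were higher and 4 lower. Keeping genes at 0 gave 0 and 0, the replicate block 0 and 0, block and filter together gave 10 and 7, and leaving out 1 library gave 0 to 4 higher and 0 to 6 lower. Leaving out 1 library gave a log2 fold change of -2.17 to 0.49 for S1pr1, turned without Col6a1+ replicate 1, and of -0.64 to 0.12 for Lpar1, turned without Col6a1+ replicate 1 and without Col6a1- replicate 2 (0.01). For the log2 ratio of Sphk1 over Sgpl1 it gave -0.047 to 0.61, turned without Col6a1+ replicate 2. The log2 fold change of S1pr3 was 5.13 to 7.44 over the alternatives that kept all 6 libraries. Without that filter, the replicate block changed no call among the 10 genes other than that of S1pr3. With the filter, it kept the call of S1pr3 and added that of Enpp2. The causes were not tested. Low counts limit S1pr1, S1pr3, Lpar2, Lpar4 and Lpar6.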
